A study of Mus musculus with 47 samples.

Results

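The genes described here are 34 mouse germline genes, chosen by symbol from a list, and all 34 were found in each of the 5 deposited expression tables. They are 34 of 24507 genes in the tables of unsorted embryonic stem cells (ESCs) and embryoid bodies (EBs), and 34 of 26182 genes in the tables of sorted ESCs. The list holds germ cell RNA regulators, genes of the piRNA pathway, components of the synaptonemal complex and of meiotic cohesin, genes of meiotic entry and recombination, germline forms of transcription factors, and germline copies of housekeeping genes. Such genes are known as genes that promoter methylation keeps silent in somatic cells. The measurements used here are of RNA. Promoter methylation was not analysed here, so the values say which of the genes were expressed and not by what means they were silent.

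Germline genes of this class mostly have CpG-rich promoters that stay unmethylated in germ cells and gain methylation as the embryo implants. In ESCs a polycomb complex that holds PCGF6, E2F6, MGA and L3MBTL2 is known to repress many of them, through an E-box bound by MGA and MAX and an E2F motif, beside DNA methylation by DNMT1, DNMT3A and DNMT3B and H3K9 methylation by SETDB1 and EHMT2. Naive culture, in which MEK and GSK3 are inhibited, is known to lower DNA methylation across the ESC genome. Thymine DNA glycosylase (TDG) removes 5-formylcytosine and 5-carboxylcytosine, the oxidised bases that TET enzymes make from 5-methylcytosine, and so takes part in active demethylation.

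The study reduced TDG in the mouse ESC line E14Tg2A by transient transfection of a small interfering RNA (siTdg), with a control siRNA (siC) in parallel. Per the labels, ESCs grew without serum in N2B27 with PD0325901 and CHIR99021, which inhibit MEK and GSK3, and LIF. RNA was taken 48 h and 96 h after transfection, from ESCs sorted into G1 and into S/G2/M (labelled G2M), and at day 11 of differentiation from EBs made of transfected ESCs. Each of these 5 settings has an siC and an siTdg group of 2 libraries, 20 libraries in all, and every group is of the 1 line, with EBs holding a mixture of cell types. Nothing in the labels says that the replicates of a group came from different cultures, and the spread on which each p-value rests may therefore be technical.

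The libraries held 20818174 to 41433232 reads assigned to genes. RPKM sums differed most among EBs, at 340297 and 371629 in the replicate 1 libraries and 873442 and 816996 in the replicate 2 libraries. The ESC label held in the markers: all 9 naive pluripotency markers were at 1 RPKM or more in every ESC library, with a summed level of 2069 to 2938 RPKM at 48 h and 96 h, against 12.9 to 29.1 RPKM in EBs. EBs held transcripts of several somatic cell types, with summed markers of 108 to 414 RPKM for endoderm and yolk sac, 14.5 to 46.4 for heart, 462 to 5066 for mesenchyme and 2.66 to 487 for erythroid cells. The 3 neural markers summed to 2.35 to 19.0 RPKM in EBs against 43.1 to 98.7 in ESCs. Of these 3, 1 had every EB library below every ESC library. The 7 markers of primordial germ cells summed to 93.7 to 154 RPKM in ESCs and to 7.25 to 9.55 in EBs.

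The promoters were rich in CpG. RefSeq windows of 300 bases (build GRCm38.p6, 250 bases before to 50 after a transcription start) matched 31 of the 34 genes, with 39 windows. The windows held a median of 20 CpG dinucleotides (3 to 38), against a median of 7 over all windows in the table. An observed to expected CpG ratio of at least 0.6 was found in 31 of the 39 windows (79.5%), against 35.8% of all windows. The promoters of the 6 genes with the largest drop from ESCs to EBs are printed first, since the differentiation results turn on them, as the 250 bases before the start on the gene's own strand, with every CpG in capitals. They are Rpl10l at chr12:66284402-66284651 (minus strand), Tuba3a at chr6:125286082-125286331 (minus), Tex19.1 at chr11:121145893-121146142 (plus), Tuba3b at chr6:145615713-145615962 (plus), Dazl at chr17:50293621-50293870 (minus) and Hsf2bp at chr17:32034509-32034758 (minus).
Rpl10l: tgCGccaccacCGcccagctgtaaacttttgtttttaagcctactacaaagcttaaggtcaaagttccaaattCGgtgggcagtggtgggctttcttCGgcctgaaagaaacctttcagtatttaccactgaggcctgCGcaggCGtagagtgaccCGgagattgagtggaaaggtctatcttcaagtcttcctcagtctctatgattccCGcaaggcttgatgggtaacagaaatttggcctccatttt
Tuba3a: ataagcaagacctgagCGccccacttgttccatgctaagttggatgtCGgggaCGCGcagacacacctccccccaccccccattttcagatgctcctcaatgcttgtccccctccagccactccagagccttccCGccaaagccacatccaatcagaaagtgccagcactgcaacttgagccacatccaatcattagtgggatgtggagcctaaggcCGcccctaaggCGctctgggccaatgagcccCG
Tex19.1: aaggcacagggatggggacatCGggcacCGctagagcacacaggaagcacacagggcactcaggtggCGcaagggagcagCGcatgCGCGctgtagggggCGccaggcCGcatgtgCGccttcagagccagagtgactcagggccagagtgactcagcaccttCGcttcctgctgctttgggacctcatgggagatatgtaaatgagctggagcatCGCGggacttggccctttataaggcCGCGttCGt
Tuba3b: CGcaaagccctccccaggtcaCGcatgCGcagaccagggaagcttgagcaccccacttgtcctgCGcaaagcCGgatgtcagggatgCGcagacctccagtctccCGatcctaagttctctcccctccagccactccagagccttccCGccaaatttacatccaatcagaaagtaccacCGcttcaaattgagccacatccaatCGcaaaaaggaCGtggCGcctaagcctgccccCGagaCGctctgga
Dazl: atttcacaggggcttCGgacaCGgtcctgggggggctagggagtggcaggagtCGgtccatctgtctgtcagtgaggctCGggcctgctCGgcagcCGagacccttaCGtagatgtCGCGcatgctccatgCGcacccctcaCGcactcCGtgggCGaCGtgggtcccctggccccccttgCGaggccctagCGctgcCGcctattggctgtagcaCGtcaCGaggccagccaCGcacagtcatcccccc
Hsf2bp: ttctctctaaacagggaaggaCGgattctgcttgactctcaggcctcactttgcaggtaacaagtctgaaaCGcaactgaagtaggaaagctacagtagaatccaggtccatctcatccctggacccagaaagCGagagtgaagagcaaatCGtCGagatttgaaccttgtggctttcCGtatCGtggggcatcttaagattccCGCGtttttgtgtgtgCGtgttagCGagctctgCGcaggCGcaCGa
The stretches hold 8 CpGs each for Rpl10l and Tuba3a, 15 for Tex19.1, 14 each for Tuba3b and Hsf2bp, and 20 for Dazl. Tuba3a and Tuba3b encode alpha-tubulins of near-identical sequence, so reads may have been split between them.

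Motifs that MGA-MAX and E2F6 are known to read were searched on both strands of the 300-base windows. The E-box CACGTG was found in 14 of the 31 genes (45.2%, exact binomial 95% interval 27.3% to 64.0%), against 8.09% of all 27025 genes with a window. The E2F motif GGCGGGA was found in 7 of 31 genes (22.6%, 9.59% to 41.1%), against 12.8% of all genes, and the longer E-box CACGTGA, which overlaps CACGTG, in 7 of 31 against 4.29%. Both CACGTG and GGCGGGA were present in 5 of 31 genes, against 1.39% of all. A second E2F form, GCGGGAA, which can overlap GGCGGGA by a shift of 1 base, was counted after the other motifs had been seen, and was present in 12 of 31 genes (38.7%) against 5.29%. Each of these motifs holds a CpG, and the genes set beside the list were not matched for CpG content. The part of CpG content in these shares was not tested. A match is a description of the letters and not of binding. Hormad1, at chr3:95559427-95559676 (plus), and Mael, at chr1:166238745-166238994 (minus), are printed as members whose windows hold both motifs, again with CpGs in capitals.
Hormad1: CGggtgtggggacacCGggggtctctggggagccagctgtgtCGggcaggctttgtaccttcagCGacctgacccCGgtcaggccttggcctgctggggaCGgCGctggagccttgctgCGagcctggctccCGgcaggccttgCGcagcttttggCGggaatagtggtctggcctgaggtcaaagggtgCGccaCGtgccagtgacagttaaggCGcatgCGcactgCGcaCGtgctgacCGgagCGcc
Mael: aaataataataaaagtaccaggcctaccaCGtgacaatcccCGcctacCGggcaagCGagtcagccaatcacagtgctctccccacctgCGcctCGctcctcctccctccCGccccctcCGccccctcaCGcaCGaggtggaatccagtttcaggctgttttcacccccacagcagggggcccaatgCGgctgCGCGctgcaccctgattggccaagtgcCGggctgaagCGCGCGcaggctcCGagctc
The Hormad1 stretch holds 19 CpGs, with CACGTG starting 57 and 20 bases before the start and GGCGGGA starting 96 bases before it. The Mael stretch holds 18 CpGs, with CACGTG 223 bases and TCCCGCC, the reverse complement of GGCGGGA, 143 bases before the start. Of the 6 printed first, the windows of Tuba3a and Tuba3b hold TCCCGCC, 119 and 106 bases before the start, and Rpl10l and Hsf2bp hold TTCCCGC, the reverse complement of GCGGGAA, 44 and 50 bases before it. The Dazl and Tex19.1 windows hold none of these motifs, which says only that the letters are not in these windows. Of the 14 genes with CACGTG, 9 had all EB libraries below all ESC libraries, and of the 17 without it, 11 did. The same count was 6 of 7 with GGCGGGA and 14 of 24 without it. For GCGGGAA, the form counted after the other motifs had been seen, it was 10 of 12 with and 10 of 19 without. Over the 13337 genes that averaged 0.5 RPKM or higher, a filter not applied to these 31, the share was 29.8%. The contrasts between genes with and without a motif were not tested.

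Most of these genes were expressed in ESCs. A median of at least 1 RPKM was reached by 26 of the 34 in the 8 libraries of 48 h and 96 h, and 20 of them were at 1 RPKM or more in every one of these libraries. In 9 genes the median was at least 10 RPKM. In the 8 sorted libraries the median was at least 1 RPKM in 25 of 34. In the 4 EB libraries 5 of 34 reached that median, and 26 were below 1 RPKM in every library.

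**Figure D1:**
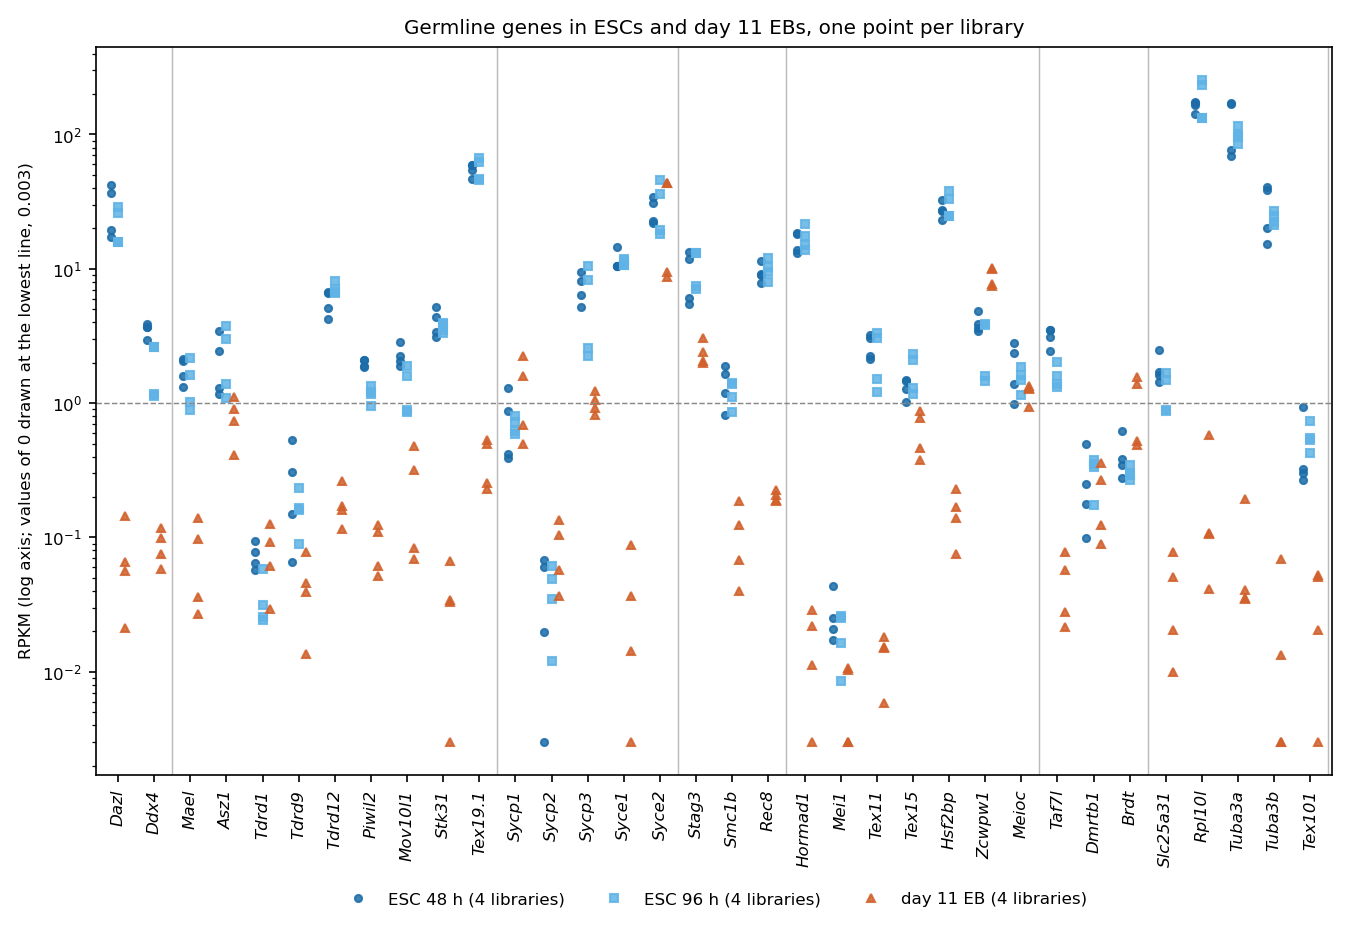
Levels of the 34 germline genes in RPKM on a log axis, with genes grouped by role between the grey lines, a dashed line at 1 RPKM, and 1 point for each of the 4 ESC libraries of 48 h, the 4 of 96 h and the 4 of day 11 EBs; values of 0 are drawn at 0.003. Rpl10l, Tuba3a and Tex19.1 are at 46.1 RPKM or more in the ESC libraries of 48 h and 96 h and at 0.576 or less in EBs, while Zcwpw1 is higher in EBs.

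In EBs the germline genes were mostly low. All 4 EB libraries lay below all 8 ESC libraries for 23 of the 34 genes (67.6%), against 29.8% of the 13337 genes whose mean was 0.5 RPKM or more. Zcwpw1 was the 1 gene with all EB libraries above all ESC libraries (2.94%, against 24.1% of all genes). EBs and ESCs overlapped for the other 10, namely Sycp1, Sycp2, Syce2, Asz1, Tdrd1, Tdrd9, Mei1, Dmrtb1, Brdt and Meioc. In such bulk samples, fewer cells that express a gene and less RNA per cell cannot be told apart. EBs were also deposited and scaled in a table of their own, so differentiation and table cannot be told apart.

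The test compared log2(RPKM + 0.5) with limma, calling a gene at a Benjamini-Hochberg adjusted p under 0.05 over all 13337 genes tested. In siC, 22 of the 28 germline genes tested were called lower in EBs, where 27.3% of all genes tested were, and 1 was called higher, where 21.4% of all were. The median log2 difference of the 28 was -2.25, and that of all genes tested was -0.11. In siTdg, 21 were called lower (26.4% of all genes) and 1 higher (21.6% of all), with a median of -2.15 against -0.10. The 28 tested genes passed a filter on the mean level, and a gene that passed through its ESC level alone had to be lower in EBs, so these counts are descriptions. Sycp2, Tdrd1, Tdrd9, Mei1, Dmrtb1 and Tex101 did not pass the filter. Leaving out replicate 2 of the siC EBs left 19 lower and 0 higher by limma, with Sycp3, Stag3, Tex15 and Zcwpw1 no longer called.

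**Figure D2:**
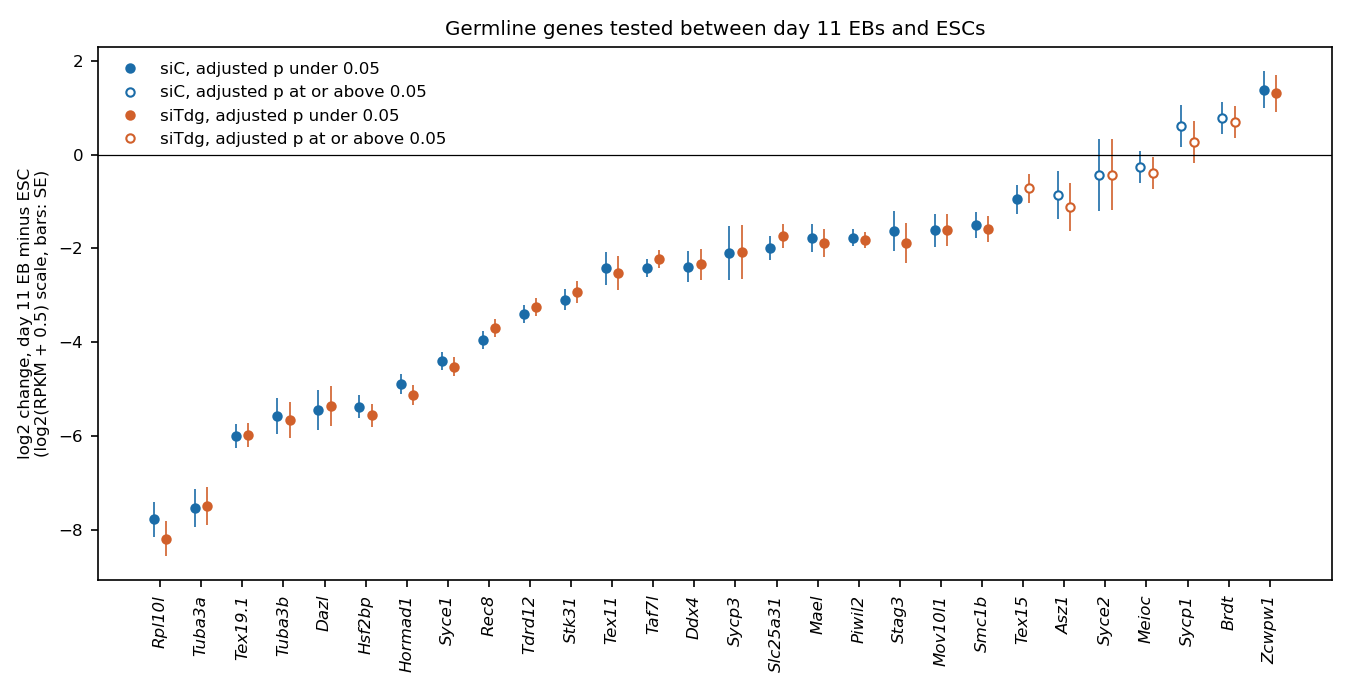
Difference between day 11 EBs and unsorted ESCs on the log2(RPKM + 0.5) scale for the 28 germline genes tested, with siC and siTdg as separate points, bars of 1 standard error, and filled points for an adjusted p under 0.05. The points run from -8.19 for Rpl10l in siTdg to 1.39 for Zcwpw1 in siC, and open points mark Asz1, Syce2, Meioc, Sycp1 and Brdt in both siRNAs.

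Of the germline copies of housekeeping genes, Rpl10l and Tuba3a had the highest ESC medians in the list, at 170 and 97.5 RPKM, while Tuba3b and Slc25a31 were at 23.4 and 1.55. Rpl10l, an autosomal retrocopy of the ribosomal protein gene Rpl10, was at 175 and 142 RPKM in siC and 172 and 167 in siTdg at 48 h, and at 134 and 233 in siC and 134 and 254 in siTdg at 96 h. In EBs it was at 0.041 and 0.576 RPKM in siC and 0.105 and 0.108 in siTdg, on 2 to 11 reads per library. Every ESC library was thus far above every EB library. The siC means were 171 ± 44.9 RPKM (SD, n = 4) in ESCs and 0.308 ± 0.378 (SD, n = 2) in EBs, a log2 difference of -7.78 (SE 0.37, limma adjusted p = 1.78e-06). Rpl10 itself was at 1680 to 2436 RPKM in these ESCs and 1218 to 7152 in EBs, and its difference in siC was 0.68 (SE 0.80, limma adjusted p = 0.511).

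Tuba3a, an alpha-tubulin of testis, was at 169 and 69.8 RPKM in siC and 171 and 76.7 in siTdg at 48 h, and at 84.5, 99.3, 95.6 and 115 at 96 h in the same order. EBs held 0.0405, 0.0345, 0.195 and 0.0356 RPKM, on 1 to 14 reads. The ESC and EB libraries did not overlap, and at 48 h the replicate 1 libraries stood well above the replicate 2 libraries in both siRNAs. Its twin Tuba3b ranged from 15.3 to 40.9 RPKM in ESCs with the same order of libraries at 48 h, and from 0 to 0.0688 in EBs. Both were called lower, by -7.54 for Tuba3a and -5.57 for Tuba3b in siC (limma adjusted p = 2.94e-06 and 1.05e-05). Slc25a31, the germline ADP/ATP carrier, was at 0.874 to 2.48 RPKM in ESCs and 0.00994 to 0.0786 in EBs, and was called lower by -1.99 (limma adjusted p = 0.000317). Tex101, a surface protein of germ cells, was at 0.268 to 0.935 RPKM in ESCs and at most 0.0524 in EBs, on 0 to 1 reads, and was too low to be tested between them.

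Both germ cell RNA regulators were lower in EBs. Dazl, an RNA-binding protein that germ cells need to enter their developmental programme, was at 42.2 and 19.4 RPKM in siC and 36.9 and 17.2 in siTdg at 48 h. At 96 h it was at 28.9 and 15.9 in siC and 26.1 and 15.8 in siTdg. Every replicate 1 library was above its replicate 2 library at both times. In EBs Dazl was at 0.0212, 0.145, 0.0655 and 0.0559 RPKM, on 3 to 9 reads, with every EB library below every ESC library. The log2 difference was -5.45 (SE 0.43, limma adjusted p = 2.01e-05). Ddx4, the RNA helicase Vasa, ranged from 1.13 to 3.87 RPKM in ESCs and 0.0582 to 0.118 in EBs, a difference of -2.39 (limma adjusted p = 0.000396).

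The piRNA pathway silences transposons in germ cells through PIWI proteins and their cofactors in germ granules. Of 9 genes listed for this pathway and for germ granules, 7 were tested, with a median of -1.78 in siC. Of these, 6 were called lower in EBs, where 27.3% of all genes tested were. Tex19.1, a mammal-specific gene that restrains retrotransposons in germ cells and placenta, was the highest of them. It was at 59.4 and 46.7 RPKM in siC and 59.7 and 54.9 in siTdg at 48 h, and at 46.1, 66.5, 46.9 and 61.9 at 96 h. EBs held 0.229, 0.493, 0.533 and 0.254 RPKM, on 8 to 43 reads, with no overlap. The difference in siC was -6.00 (SE 0.26, limma adjusted p = 1.23e-06).

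Among the other genes of this list was Tdrd12, a tudor protein and helicase. It ranged from 4.21 to 8.10 RPKM in ESCs and 0.116 to 0.264 in EBs (-3.40 in siC). Stk31, a tudor and kinase domain protein, ranged from 3.09 to 5.16 RPKM in ESCs and 0 to 0.0666 in EBs (-3.09). Mael, the PIWI protein gene Piwil2 and the helicase gene Mov10l1 had ESC medians of 1.61, 1.61 and 1.89 RPKM and EB medians of 0.0667, 0.0853 and 0.200, and were called lower by -1.78, -1.77 and -1.62. Asz1, an ankyrin protein of germ granules, overlapped between ESCs (1.10 to 3.72 RPKM) and EBs (0.413 to 1.10), with a difference of -0.86 (SE 0.51, limma adjusted p = 0.201). Tdrd1 and Tdrd9 stayed at or below 0.0947 and 0.534 RPKM in every unsorted ESC library, so these tudor genes were low before differentiation too.

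The synaptonemal complex, which joins homologous chromosomes in meiosis, split within itself. Syce1, a central element protein, was at 10.5 to 14.5 RPKM in the 8 ESC libraries and at 0.0143 and 0.0366 in siC EBs and 0.0886 and 0 in siTdg EBs, and was called lower by -4.40 in siC (SE 0.20, limma adjusted p = 1.28e-06). Sycp3, an axial element protein, was at 6.38, 8.16, 5.17 and 9.40 RPKM at 48 h and 2.25, 8.26, 2.57 and 10.5 at 96 h, with the replicate 1 libraries lowest at 96 h. It was at 0.822, 1.05, 0.923 and 1.23 RPKM in EBs and was called lower by -2.10 (SE 0.58, limma adjusted p = 0.0157), a call lost by leaving out either siC EB library.

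Syce2, which pairs with other central element proteins, was not uniformly low in EBs. It was at 8.75 and 9.54 RPKM in the replicate 1 EBs and 43.5 and 43.7 in the replicate 2 EBs, below and within the ESC range of 18.2 to 45.6. The difference in siC was -0.43 (SE 0.76, limma adjusted p = 0.670). Sycp1, the transverse filament protein, was at 0.393 to 1.29 RPKM in ESCs and 2.23, 0.686, 1.58 and 0.498 in EBs, with the replicate 1 EBs above every ESC library (0.61, SE 0.44, limma adjusted p = 0.289). Sycp2 was at or below 0.136 RPKM in every ESC and EB library. In RefSeq the Sycp3 gene overlaps Chpt1, and Syce2 overlaps Gcdh. The kit marks strand but the counting setting is not given, so reads of such neighbours may be included.

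All 3 meiotic cohesin genes were called lower in EBs in siC, where 27.3% of all genes tested were. Their median was -1.62. Rec8, the kleisin of meiotic cohesin, was at 9.12 and 11.5 RPKM in siC and 7.79 and 8.93 in siTdg at 48 h, and at 10.2, 12.0, 7.95 and 9.44 at 96 h. EBs held 0.225, 0.208, 0.189 and 0.188 RPKM, far below, and the difference was -3.96 (SE 0.19, limma adjusted p = 1.92e-06). Stag3 was at 5.44 to 13.3 RPKM in ESCs and 2.00 to 3.06 in EBs (-1.62, limma adjusted p = 0.0130). It remained above 1 RPKM in every EB library, and its gene overlaps Gal3st4 and Gpc2. Smc1b was lower in both, at 0.823 to 1.88 RPKM in ESCs and 0.0398 to 0.187 in EBs (-1.51). Of the mitotic counterparts, Rad21 (-0.81), Smc1a (-1.64) and Stag1 (-1.53) were called lower in siC EBs too and Stag2 (0.70) higher, with Rad21 at 65.1 to 84.8 RPKM and Stag2 at 15.7 to 30.4 RPKM in EBs.

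Of the 7 genes of meiotic entry and recombination, 6 were tested, 4 were called lower and 1 was called higher in siC. The shares of all genes tested were 27.3% lower and 21.4% higher. Hsf2bp, which brings BRCA2 to meiotic break sites, was at 22.9 to 37.9 RPKM in ESCs and at 0.139, 0.168, 0.0753 and 0.231 in EBs (-5.38 in siC, SE 0.24, limma adjusted p = 1.40e-06). Hormad1, a protein of the unsynapsed chromosome axis, was at 13.8 and 13.0 RPKM in siC and 18.4 and 18.1 in siTdg at 48 h, and at 13.8 to 21.5 at 96 h. It gave 2, 0, 1 and 1 reads in the 4 EB libraries, and was called lower by -4.90 (limma adjusted p = 1.26e-06). The crossover gene Tex11 was at 1.21 to 3.31 RPKM in ESCs and at most 0.0180 in EBs (-2.43). Tex15, a repair protein of the male germline, was at 1.03 to 2.31 RPKM in ESCs and 0.376 to 0.878 in EBs. It was called lower in siC (-0.95, limma adjusted p = 0.0308) and not in siTdg (-0.72, adjusted p = 0.0844), a difference between siRNAs that was not called for any gene.

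Zcwpw1, a reader of the histone marks that PRDM9 leaves at recombination sites, went the other way. ESCs held 3.44 and 3.89 RPKM in siC and 3.63 and 4.85 in siTdg at 48 h, and 1.46, 3.81, 1.58 and 3.90 at 96 h. EBs held 7.43 and 9.95 in siC and 7.74 and 10.1 in siTdg, all above the highest ESC library. The difference was 1.39 in siC (SE 0.39, limma adjusted p = 0.0174) and 1.31 in siTdg (adjusted p = 0.0228). The call in siC was lost without replicate 2 of the siC EBs (1.19, adjusted p = 0.109), and the call in siTdg without replicate 1 at 48 h or at 96 h or replicate 2 of the EBs. The Zcwpw1 gene overlaps Pilra in RefSeq. Meioc, a partner of YTHDC2 that keeps cells in meiosis, overlapped, at 0.991 to 2.79 RPKM in ESCs and 0.938 to 1.34 in EBs (-0.27, SE 0.34, limma adjusted p = 0.550). Mei1 was at or below 0.0433 RPKM in the unsorted ESCs and at or below 0.0106 in EBs.

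Of the germline transcription and chromatin genes, Taf7l, a testis form of the TFIID subunit TAF7, was at 1.32 to 3.51 RPKM in ESCs and 0.0217 to 0.0781 in EBs (-2.42, limma adjusted p = 2.28e-05). Brdt, the testis member of the BET bromodomain family, was at 0.270 to 0.622 RPKM in ESCs and at 0.522, 1.40, 0.485 and 1.57 in EBs, with the replicate 2 EBs above every ESC library. Its difference of 0.77 did not pass (SE 0.34, limma adjusted p = 0.0921). Dmrtb1, a DM-domain factor of spermatogonia, was at 0.0985 to 0.498 RPKM in ESCs and 0.0895 to 0.361 in EBs.

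The log2 values of genes close to 0 RPKM in EBs are set in large part by the added 0.5, and are not bounds. With 0.1 in its place, the median of the tested germline genes was -3.74 in siC and -3.55 in siTdg.

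The genes known to silence germline promoters went in both directions in EBs. Of 16 genes of the PCGF6-E2F6 polycomb complex and its partners, 6 were called lower in siC, namely Pcgf6 (-1.83), L3mbtl2 (-3.41), Mga (-1.50), Rybp (-1.50), Wdr5 (-2.83) and Hdac1 (-1.20). E2f6 (1.33), Ring1 (1.30) and Yaf2 (3.58) were called higher. Of all genes tested 27.3% were called lower and 21.4% higher, and the list's median was -0.50 against -0.11 over all genes. The level of E2f6, which binds the E2F motif, was 8.80 to 14.6 RPKM in ESCs and at a median of 30.4 in EBs. The next list holds 12 genes of DNA and H3K9 methylation and related silencing, with Kdm5c, a demethylase of another histone mark, among them. Of the 12, 8 were called lower, namely Dnmt1 (-2.01), Dnmt3b (-2.97), Dnmt3l (-4.99), Uhrf1 (-3.65), Hells (-2.94), Setdb1 (-1.67), Trim28 (-2.19) and Kdm5c (-1.21). The de novo methyltransferase gene Dnmt3a was called higher (3.06), from 1.02 to 2.54 RPKM in ESCs to 11.8 to 21.0 in EBs. Uhrf1, which brings DNMT1 to newly copied DNA, was at 168 to 245 RPKM in ESCs and 13.4 to 20.6 in EBs.

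Of the 4 genes of demethylation, Tet1 (-3.91) and Tet2 (-1.73) were called lower and Tet3 (1.97) higher in siC EBs. Tdg was not called in siC (-0.21, SE 0.27, limma adjusted p = 0.557) and was called higher in siTdg EBs than in siTdg ESCs (1.12, adjusted p = 0.00915), where the ESC libraries include the knock-down at 48 h. Of 12 germline transcription factor genes, 9 were tested and 8 were called lower, namely Prdm1 (-1.40), Prdm14 (-5.20), Tfap2c (-4.42), Dmrt1 (-3.40), Sohlh2 (-5.14), Stra8 (-3.37), Taf4b (-2.97) and Rfx2 (-3.81). The shares of all genes tested in siC were 27.3% lower and 21.4% higher. Prdm14 was at 15.8 to 19.8 RPKM in ESCs and at most 0.0162 in EBs. Prdm1, Prdm14 and Tfap2c are also among the 7 primordial germ cell markers, whose sum was lower in EBs. The part of cell type in the germline gene levels was not tested.

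The Tdg transcript was measured first, since it checks the siRNA labels. At 48 h Tdg was at 46.0 and 43.4 RPKM in siC and 7.34 and 13.2 in siTdg, with no overlap (-2.12, SE 0.31, limma adjusted p = 1). At 96 h it was at 35.8 and 46.0 in siC and 28.2 and 40.3 in siTdg, and the groups overlapped (-0.26). In EBs it was at 35.1 and 38.5 in siC and 37.3 and 43.7 in siTdg. In sorted cells siC held 54.8 and 59.6 RPKM in G1 and 61.6 and 63.1 in G2M, against 9.64 and 7.53, and 12.3 and 8.63, in siTdg. The difference was called in G1 (-2.67, limma adjusted p = 0.0233) and G2M (-2.54, adjusted p = 0.0331). Leaving out any 1 library in G1, and 3 of the 4 in G2M (all but replicate 1 of siTdg), ended the call, while the difference stayed between -2.84 and -2.51 in G1 and between -2.78 and -2.29 in G2M.

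At 48 h no germline gene was called between siTdg and siC. Of the 28 tested, 14 were above 0 and 14 below, the median was 0.01, and 1 had an unadjusted limma p under 0.05. Among all 12190 genes tested 0 were called (0%) by limma, and 0 by limma-voom on recovered reads, with 54 at an unadjusted p under 0.05. In simulated counts this comparison recovered 20.9% of genes changed by 1 on the log2 scale and 70.1% of those changed by 2. In the data Tdg itself, at -2.12, was not called. A lack of calls therefore says little about changes of that size or smaller. Among genes that reach 1 RPKM in the higher group, from which all extremes below are taken, Hormad1 had the largest positive value, at 18.2 ± 0.247 RPKM in siTdg against 13.4 ± 0.591 in siC (SD, n = 2), a difference of 0.43, with both siTdg libraries above both siC libraries. Asz1 (0.26), Smc1b (0.25), Hsf2bp (0.23) and Tuba3b (0.23) came next, and for each of these the siTdg and siC libraries overlapped. Tdrd12 had the largest negative value, from 6.62 and 6.70 RPKM in siC to 4.21 and 5.11 in siTdg (-0.48, unadjusted p = 0.0452, limma adjusted p = 1). Slc25a31 (-0.34), Rec8 (-0.28), Dazl (-0.18) and Ddx4 (-0.17) followed.

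At 96 h 19 of the 28 were above 0 and 9 below, the median was 0.06, and 0 were called or had an unadjusted limma p under 0.05. The share of all genes above 0 is not given here, so the 19 are not set apart from other genes. Of all genes 0 were called (0%) by limma and by limma-voom, with 11 at an unadjusted p under 0.05. The largest positive values were Sycp3 (0.24), Mael (0.23), Syce2 (0.21), Tuba3a (0.20) and Tex11 (0.17), and the largest negative ones Rec8 (-0.34), Taf7l (-0.31), Tex15 (-0.11), Dazl (-0.08) and Slc25a31 (-0.06). Rec8 was below 0 at both times in unsorted cells and above 0 in sorted cells (0.14 in G1 and 0.12 in G2M), and was called in none of these. It was at 10.2 and 12.0 RPKM in siC and 7.95 and 9.44 in siTdg at 96 h, with both siTdg libraries below both siC libraries at each time.

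The effect of siTdg was not called as different between 96 h and 48 h for any gene (0 of 12190, 0%, by limma and limma-voom, 15 at an unadjusted p under 0.05). Tdg itself differed by 1.86 (adjusted p = 1.00). The largest positive differences in the list were Tdrd12 (0.57), Mael (0.32), Syce2 (0.31), Sycp3 (0.29) and Slc25a31 (0.28), and the largest negative ones Taf7l (-0.47), Hormad1 (-0.35), Asz1 (-0.25), Tex19.1 (-0.16) and Smc1b (-0.14).

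In EBs 9 of the germline genes were high enough to be tested, and 0 were called or had an unadjusted limma p under 0.05 (0 of all 13300 genes called, 0%, by limma and limma-voom, 20 at an unadjusted p under 0.05). The median was 0.04. Sycp3 (0.13), Syce2 (0.06), Zcwpw1 (0.04) and Brdt (0.04) had the largest positive values, beside Tdg at 0.13, and Stag3 (-0.35), Sycp1 (-0.32) and Meioc (-0.13) the largest negative ones. In simulated counts this comparison recovered 0% of genes changed by 1, 2 or 4 on the log2 scale, so a lack of calls there says little. Genes close to 0 in siC EBs were close to 0 in siTdg EBs too: Rpl10l, Tuba3a, Tuba3b, Hormad1 and Dazl were each at or below 0.195 RPKM in both siTdg libraries. The siTdg effect did not differ by limma between EBs and ESCs for any gene (0 of 13337, 0%, by limma and limma-voom, 35 at an unadjusted p under 0.05).

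**Figure D3:**
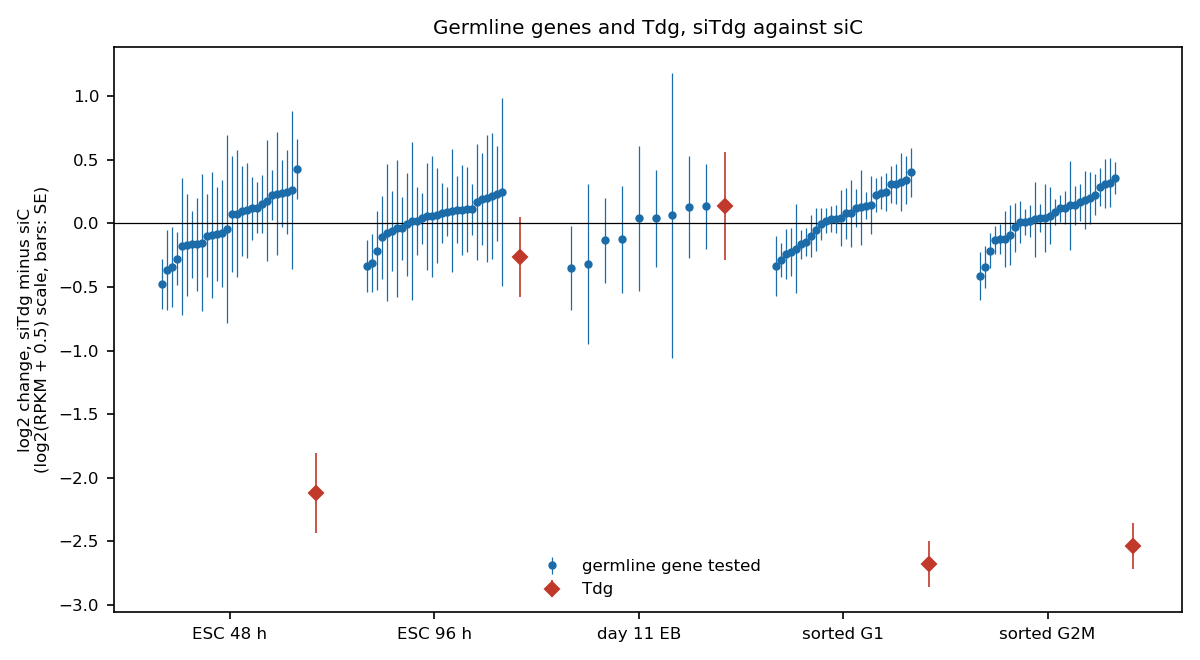
Difference between siTdg and siC on the log2(RPKM + 0.5) scale for Tdg and the germline genes tested in each of the 5 settings, 48 h, 96 h, day 11 EBs, G1 and G2M, with 1 point per gene, sorted by value within a setting, and bars of 1 standard error. Tdg lies at -2.12, -2.67 and -2.54 at 48 h, in G1 and in G2M, while the germline genes lie between -0.48 and 0.43 in all 5 settings.

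In the sorted cells no germline gene was called in either phase, and the summed markers of 2-cell-like cells, given at the end, were higher in siTdg in both. Sorted siC and sorted siTdg cells were deposited and scaled in separate tables, so siTdg and table cannot be told apart within a phase. In G1, 0 of 28 were called or had an unadjusted limma p under 0.05, 18 were above 0 and 10 below, while 1 of all 12462 genes, Tdg, was called (0.00802%). Tuba3a (0.40), Tuba3b (0.34), Hsf2bp (0.33), Zcwpw1 (0.31) and Dmrtb1 (0.31) had the largest positive values. Dazl (-0.34), Piwil2 (-0.29), Ddx4 (-0.24), Slc25a31 (-0.22) and Sycp1 (-0.20) had the largest negative ones. Tuba3a was at 39.8 and 47.8 RPKM in siC and 48.6 and 68.7 in siTdg in G1, both siTdg libraries above both siC libraries.

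In G2M, 0 of 28 were called by limma, 1 (Meioc) had an unadjusted p under 0.05, 20 were above 0 and 8 below, and again Tdg was the 1 gene called of all (0.00802%). The counts above 0 in G1 and G2M are given without the share of all genes above 0, and do not set the germline genes apart. Meioc (0.36), Tuba3b (0.32), Tuba3a (0.31), Stk31 (0.28) and Zcwpw1 (0.22) had the largest positive values, and Slc25a31 (-0.41), Taf7l (-0.34), Piwil2 (-0.21), Syce1 (-0.13) and Tex11 (-0.12) the largest negative ones. limma-voom called 0 of the germline genes in either phase. The effect of siTdg was not called as different between the phases for any gene (0 of 12462, 0%, by limma and limma-voom, 36 at an unadjusted p under 0.05). For that difference the extremes were Meioc (0.36), Sycp1 (0.34), Dazl (0.25), Ddx4 (0.21) and Mov10l1 (0.19), and Taf7l (-0.25), Syce2 (-0.22), Slc25a31 (-0.19), Syce1 (-0.17) and Tex15 (-0.16), with Tdg at 0.14.

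None of the genes of silencing, demethylation or germline transcription other than Tdg was called between siTdg and siC. In the polycomb list the 2 largest values were E2f6 (0.38) and Rybp (-0.20) at 48 h, Cbx3 (0.24) and Tfdp1 (0.23) at 96 h, Cbx3 (0.34) and Rnf2 (0.23) in EBs, Rybp (-0.33) and Mga (-0.30) in G1, and Ring1 (0.22) and Mga (-0.17) in G2M. In the DNA and H3K9 methylation list they were Dnmt3l (-0.42) and Dnmt3a (0.20) at 48 h, Dnmt3l (-0.65) and Dnmt3b (-0.21) at 96 h, Hells (0.20) and Dnmt3b (0.18) in EBs, Dnmt3b (-0.30) and Smchd1 (-0.25) in G1, and Dnmt3b (-0.34) and Dnmt3l (-0.24) in G2M. Tet2 lay between -0.17 and 0.17 in the unsorted settings, and Tet1 was at -0.54 in G1 and -0.40 in G2M (SE 0.47 in each). Among germline transcription factors the largest were Mybl1 (-0.20) at 48 h, Stra8 (0.33) at 96 h, Rfx2 (-0.11) in EBs, Taf4b (-0.34) in G1 and Prdm1 (0.32) in G2M.

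Between the phases, Rec8 and the alpha-tubulin copy Tuba3a had the largest negative and positive differences of the germline genes in siC, and Taf7l and Tuba3a in siTdg. In siC Rec8 was at 5.52 and 4.93 RPKM in G1 and 3.11 and 3.18 in G2M, and in siTdg at 5.67 and 5.93 in G1 and 3.31 and 3.60 in G2M. In both siRNAs every G2M library was below every G1 library. The difference was -0.65 in siC (SE 0.11, limma adjusted p = 0.139) and -0.67 in siTdg (adjusted p = 0.112), so it did not pass the threshold here. Tuba3a was at 39.8 and 47.8 RPKM in G1 and 58.7 and 70.8 in G2M in siC, and at 48.6 and 68.7, and 74.6 and 85.8, in siTdg, with G2M above G1 in each (0.56 in siC and 0.47 in siTdg).

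By limma 0 of 28 germline genes were called between the phases in siC, where 0.12% of all genes were (13 higher and 2 lower in G2M), and 0 of 28 in siTdg, where 0.169% were (18 higher and 3 lower). Unadjusted limma p-values under 0.05 were reached by 6 of 28 in siC and 5 of 28 in siTdg, and limma-voom called 0 in each. The share of all genes under that unadjusted p is not given here, so the 6 and 5 are not set apart from other genes. In simulated counts the comparison of phases in siC recovered 64.2% of genes changed by 1 on the log2 scale and 95.5% of those changed by 2. In siC the other extremes were Tuba3b (0.48), Zcwpw1 (0.28), Syce2 (0.27) and Syce1 (0.25), and Meioc (-0.52), Taf7l (-0.44), Sycp1 (-0.23) and Slc25a31 (-0.22), with Tdg at 0.12. In siTdg they were Tuba3b (0.46), Mov10l1 (0.28), Stag3 (0.26) and Zcwpw1 (0.20), and Taf7l (-0.69), Slc25a31 (-0.41), Dmrtb1 (-0.34) and Meioc (-0.16), with Tdg at 0.26. Of the other lists, Tet1 had 0.53 in siC and 0.67 in siTdg, Dnmt1 0.39 and 0.49, Mga 0.39 and 0.52, and Tfap2c -0.47 and -0.38, and none of these was called.

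**Figure D4:**
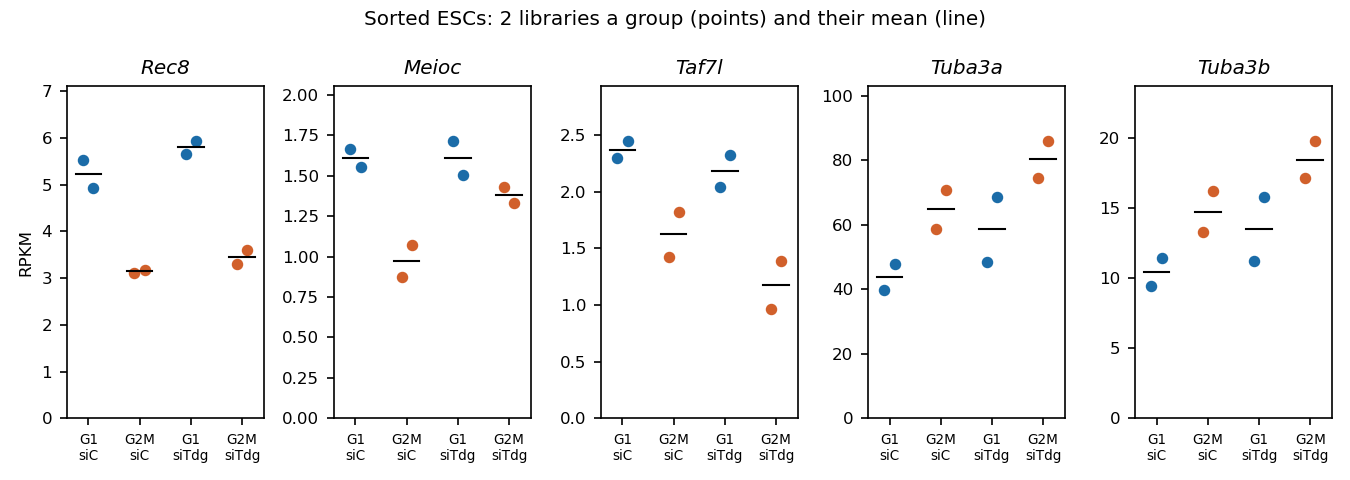
RPKM of Rec8, Meioc, Taf7l, Tuba3a and Tuba3b in the 8 sorted libraries, with 1 point per library, a line at each group's mean, and a linear axis from 0 for each gene. Rec8 is lower and Tuba3a and Tuba3b are higher in G2M than in G1 within each siRNA.

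The authors deposited fold changes of their own, 1 table per comparison, and some of these passed there. In the authors' deposited table Rec8 was lower in G2M in siC (log2 fold change -0.73, adjusted p = 0.0173) and in siTdg (-0.75, adjusted p = 0.0263). In the same authors' deposited table Tuba3a was higher in siC (0.56, adjusted p = 7.64e-09) and siTdg (0.47, adjusted p = 0.00762), and Tuba3b higher in siC (0.50, adjusted p = 0.0155) and not in siTdg (adjusted p = 0.0818). The authors' deposited table called 675 genes higher and 243 lower in G2M in siC, and 481 and 102 in siTdg. For siTdg against siC the authors' deposited table called 10 genes higher and 103 lower at 48 h, 3 and 6 at 96 h, and 8 and 2 in EBs, and none of the 34 germline genes was among them. For Hormad1 at 48 h the authors' deposited table gave 0.44 (adjusted p = 0.0852). The signs of the authors' deposited table at 48 h and 96 h were turned here, so that a value above 0 is higher in siTdg.

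Cells that resemble the 2-cell embryo are a rare state within ESC cultures. Their transcripts differed by replicate in unsorted ESCs, and by phase and siRNA in sorted ESCs. Of the 6 markers, at most 3 reached 1 RPKM in any library. Summed over 6 such markers, replicate 1 libraries of 48 h and 96 h held 0.294 to 1.76 RPKM and replicate 2 libraries 5.99 to 15.1. Sorted libraries held 39.1 and 25.4 RPKM in siC G1, 19.2 and 16.2 in siC G2M, 58.5 and 49.8 in siTdg G1, and 32.3 and 30.7 in siTdg G2M, so each G1 library was above each G2M library of the same siRNA, and each siTdg library above each siC library of the same phase. EBs held at most 0.841 RPKM. Sorted siC and sorted siTdg libraries were scaled separately, so siTdg and table cannot be told apart in these sums. The part of these cells in the phase and siTdg values of the germline genes was not tested.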

How the data were processed

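RNA of 20 libraries in 10 groups of 2 was used, of 47 samples in the labels. RNA was depleted of ribosomal RNA and sequenced as stranded total RNA, per the labels' protocols. The submitters' processing notes name TopHat, Bowtie, DESeq2, DiffBind, mm9 and dm3. For the gene annotation and the counting tool, the sources used here give no name. The authors deposited RPKM in 1 table per pair of groups, scaled separately, and 4 columns of no sample were not used. The authors also deposited log2 fold changes, p-values and adjusted p-values, and mean normalised counts (a signal per gene that was not used for tests), under column names of DESeq2, per the file headers. The day 9 EB RNA and the DNA and chromatin samples were not analysed here.

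RPKM divided by the step of 1 read gave whole reads (within 0.01 reads) for 100.0% of values, which gave the depths printed. No pair of libraries agreed within sampling noise. limma 3.58.1 in R 4.3.3 was fitted to log2(RPKM + 0.5) of genes whose mean was 0.5 RPKM or more, with a trend, no replicate term and 2-sided tests, in models of 8 unsorted ESC, 4 EB, 8 sorted, and 12 ESC and EB libraries. A call was an adjusted p under 0.05. Alternatives were limma-voom on recovered reads, pseudocounts of 0.1 and 1, other filters and scalings, a replicate block and leaving out each library. The fit was tested on simulated data. Sorted and unsorted tables were not compared, since their gene models differ: gene lengths were within 5% for 86.9% of genes.

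In each comparison the text names Tdg, every member called, and the 5 members with the largest change in each direction that reach 1 RPKM. From the silencing, demethylation and transcription factor lists it names those called, or else up to 2 with the largest change. Hormad1 and Mael promoters were added after their motifs were seen. The members and the lists were chosen with earlier results of these data known.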

Additional observations from a re-analysis of the deposited data

How the results depend on the processing

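Germline genes called between EBs and ESCs, in either direction, numbered 19 to 23 in siC and 20 to 22 in siTdg when 1 library was left out. The size of their difference moved: the median difference between EBs and ESCs was -3.74 in siC and -3.55 in siTdg with a pseudocount of 0.1, -1.69 in both with a pseudocount of 1, -1.77 and -1.85 with no filter, and -4.89 and -4.80 with limma-voom. Leaving out 1 library gave siC medians of -2.50 to -1.99. The pseudocount changes these values by construction. For the other results below the cause was not tested. Sycp1 in siTdg EBs against ESCs turned to -0.083 with quantile normalization and ranged from -0.25 to 0.81 when 1 library was left out, and Tdg in siC turned to 0.10 with quantile normalization.

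Replicate numbers are shared by the groups, and same-numbered libraries deviated together, with correlations of 0.84 at 48 h, 0.92 at 96 h, 0.96 in EBs, 0.67 between the siC phases and 0.72 between the siTdg phases. With 2 pairs a set, and no label that ties numbers to a culture or day, they were treated as numbers. With a replicate block, 614 genes were called between the phases in siC and 985 in siTdg, 150 between siTdg and siC in EBs, 2 in G1 and 3 in G2M. The block called 4 germline genes between the phases in siC (Meioc, Rec8, Tuba3a and Tuba3b) and 4 in siTdg (Rec8, Taf7l, Tuba3a and Tuba3b), and 0 between siTdg and siC in any setting.

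With no filter on low genes, 4 genes were called at 96 h, 4 for 96 h minus 48 h, 6 in G1, 4 in G2M, 7 for the phase difference of the siTdg effect and 6 for its difference between EBs and ESCs. With the compared groups fitted alone, 3 genes were called between the phases in siC, 0 in siTdg, 0 in G1 and 0 in G2M. Leaving out 1 library gave 0 genes between the phases in siC, 0 to 8 in siTdg, 0 in G1, 0 to 1 in G2M and 0 to 1 in EBs. limma-voom turned the median between the siC phases to -0.042, and Zcwpw1 and Brdt in EBs to -0.015 and -0.042. CACGTGA in place of CACGTG lowered the share of genes from 45.2% to 22.6%.

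Leaving out 1 library turned the sign of small siTdg differences. The ranges at 48 h were -0.31 to 0.83 for Asz1, -0.73 to 0.37 for Dazl, -0.11 to 0.60 for Smc1b and -0.42 to 0.89 for Tuba3b. At 96 h they were -0.68 to 1.17 for Sycp3, -0.18 to 0.64 for Mael, -0.39 to 0.82 for Syce2, -0.36 to 0.70 for Tex11, -0.44 to 0.22 for Tex15, -0.50 to 0.35 for Dazl and -0.39 to 0.27 for Slc25a31, with a median of -0.23 to 0.24. For 96 h minus 48 h they were -0.95 to 0.45 for Asz1, -0.42 to 0.10 for Tex19.1, -0.49 to 0.21 for Smc1b, -0.63 to 1.21 for Sycp3, -0.30 to 0.91 for Syce2, -0.050 to 0.62 for Slc25a31 and -0.093 to 0.73 for Mael, with a median of -0.22 to 0.24. In EBs they were -1.06 to 1.19 for Syce2, -0.16 to 0.24 for Zcwpw1, -0.50 to 0.57 for Brdt, -0.92 to 0.28 for Sycp1, -0.31 to 0.043 for Meioc and -0.0087 to 0.27 for Sycp3, with a median of -0.15 to 0.043. In G1 they were -0.60 to 0.20 for Sycp1 and -0.00057 to 0.66 for Hsf2bp, with medians of 0.013 to 0.12 in G1 and 0.029 to 0.13 in G2M. Between the phases Sycp1 ranged from -0.63 to 0.17 in siC, with medians of -0.056 to 0.071 in siC and -0.068 to 0.12 in siTdg. For the phase difference of the siTdg effect they were -0.056 to 0.74 for Sycp1, -0.39 to 0.066 for Tex15, -0.11 to 0.38 for Tdg, -0.067 to 0.56 for Dazl and -0.40 to 0.021 for Slc25a31, with a median of -0.067 to 0.058. A lone library left in a group is assumed there to vary like the other groups. Depth was 20818174 reads or more in every library, and EB values of 0 to 11 reads cannot be ordered.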

Other observations

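Germline genes outside the list of 34 went in both directions on differentiation. Of 30 other germline genes, 15 were tested between EBs and ESCs in siC, 9 were called lower and 3 higher by limma, with a median log2 difference of -1.60, where 27.3% of all genes tested were called lower and 21.4% higher. Those called lower were Fkbp6 (-6.08), Rnf17 (-4.51), Gtsf1 (-3.58), Tex14 (-3.44), Hormad2 (-2.52), Dnd1 (-1.82), Pld6 (-1.63), Nanos3 (-1.60) and Dmc1 (-1.05). Those called higher were Tdrkh (1.71), Msh5 (1.64) and Ybx2 (1.01). In siTdg 9 were called lower and 2 higher. A gene that passed the filter through its ESC level alone had to be lower in EBs, so these counts are descriptions. Of 15 somatic counterparts of the germline genes, 6 were called lower in siC, namely Taf7 (-1.69), Smc1a (-1.64), Mov10 (-1.64), Stag1 (-1.53), Slc25a5 (-1.26) and Rad21 (-0.81), and 1 higher, Stag2 (0.70), against the same shares of all genes. All genes called in these lists are named, and were chosen after their values were seen.

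The gene model of Tdrd12 was 3.96 times longer in the tables of sorted cells than in those of unsorted cells, so its RPKM of 1.25 to 2.16 in sorted cells and 4.21 to 8.10 in unsorted ESCs are not comparable. Gene lengths were within 5% for 30 of the 34 germline genes, the others being Piwil2 (1.26 times), Zcwpw1 (1.11) and Dmrtb1 (1.10).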
